A study of Mus musculus with 12 samples.

Results

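The 9 genes described here encode 5 STAT transcription factors (Stat2, Stat3, Stat5a, Stat5b and Stat6), the Janus kinase Jak2, and 3 feedback inhibitors (Socs1, Socs3 and Cish). They were taken by name, as the entries of the read-count table that carry these symbols. The list was drawn up with earlier results of these data known. Counts of members set beside the shares of all genes are therefore descriptions. All 9 were found among the 55137 entries, and all 9 were among the 14505 genes that passed the filter on low counts.

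RNA was sequenced from RAW 264.7, an established mouse macrophage-like line derived from a tumour induced by Abelson murine leukaemia virus, with 12 libraries in 4 groups of 3. Control cells had vehicle, PSTO cells had the agent PSTO at 20 uM, LPS cells had vehicle and then LPS at 500 ng/mL, and PSTO+LPS cells had both agents. PSTO or vehicle was given 30 minutes before LPS, and cells were harvested after 6 h. LPS is a bacterial cell wall component sensed by Toll-like receptor 4. The labels do not spell out PSTO, while the series title names garlic extract. Every group is the same single cell line, and nothing says that the 3 replicates were separate cultures, so p-values measure only the spread between these libraries.

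Cytokine receptors of this pathway have no kinase activity of their own. Ligand binding activates Janus kinases bound to the receptor, which phosphorylate STAT proteins, and these pair, enter the nucleus and bind DNA. STAT proteins act on genes for SOCS proteins, which then bind the receptor or the kinase and shut the signal down, so that SOCS messenger RNA is widely used as a readout of recent cytokine signalling. In macrophages, LPS itself does not bind such a receptor, but it makes the cells release interferon beta and other cytokines that do.

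Library totals ran from 15817880 to 28625784 reads. The line was checked against its type: all 8 macrophage markers were measured, and their summed level was 7692 to 10595 CPM (reads per 1000000 after TMM scaling, the unit of every level below). The summed markers of 6 other cell types reached at most 12 CPM in any library, the higher sums lying in cells with LPS. B cell markers summed to 7.58 to 12 CPM in LPS and 5.01 to 6.87 CPM in PSTO+LPS, against at most 0.351 CPM elsewhere. T cell markers summed to 5.49 to 7.5 CPM in LPS and 3.57 to 5.42 CPM in PSTO+LPS, against at most 2.13 CPM elsewhere. Of the 5 T cell markers, Cd8a and Cd3g had no read in any library. Neutrophil markers summed to 8.94 to 10.9 CPM in PSTO+LPS against at most 3.41 CPM elsewhere. The part of these markers in the results was not tested. The library PSTO+LPS 1 stood apart from its group on the fourth principal component, at -38.89 against 21.58 and 30.67. On the second component, which parted libraries with PSTO from those without, it was at -47.93 against -34.77 and -32.51. Some of the values that rest on this library, but not all, are also given without it. In bulk RNA, fewer cells of a kind and less RNA per cell cannot be told apart.

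The promoters of 4 members held short matches to STAT or interferon motifs and are shown because these genes were among those with the largest changes. Each stretch runs from 250 bases before to 50 bases after a RefSeq transcript start, 5′ to 3′ on the gene's strand, from build GRCm38.p6, which is not the mm39 build named for the counts. Capitals mark the matches. The patterns searched, on both strands, were the STAT-binding GAS pattern TTCNNNGAA, its wider form TTCNNNNGAA, and the interferon-response pattern GAAANNGAAA.
Cish, chr9:107296409-107296708, plus strand: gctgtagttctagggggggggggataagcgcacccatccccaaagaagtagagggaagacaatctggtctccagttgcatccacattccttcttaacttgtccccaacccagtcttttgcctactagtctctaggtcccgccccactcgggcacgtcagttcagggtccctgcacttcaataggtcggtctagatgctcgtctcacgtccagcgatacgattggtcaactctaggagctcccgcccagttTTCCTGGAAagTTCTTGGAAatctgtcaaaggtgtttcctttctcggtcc
Socs3, chr11:117969317-117969616, minus strand: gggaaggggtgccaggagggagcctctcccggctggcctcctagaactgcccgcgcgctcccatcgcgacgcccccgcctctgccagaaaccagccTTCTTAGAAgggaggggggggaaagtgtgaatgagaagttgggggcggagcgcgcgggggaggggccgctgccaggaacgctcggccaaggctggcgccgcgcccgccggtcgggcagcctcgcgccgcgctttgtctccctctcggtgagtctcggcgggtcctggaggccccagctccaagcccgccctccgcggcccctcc
Socs1, chr16:10785487-10785786, minus strand: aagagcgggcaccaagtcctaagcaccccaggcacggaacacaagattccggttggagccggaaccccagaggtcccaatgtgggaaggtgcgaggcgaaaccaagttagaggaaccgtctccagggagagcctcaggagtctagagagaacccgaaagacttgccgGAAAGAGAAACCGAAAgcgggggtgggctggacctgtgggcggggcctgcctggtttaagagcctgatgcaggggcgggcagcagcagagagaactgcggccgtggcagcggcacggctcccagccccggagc
Stat2, chr10:128270248-128270547, plus strand: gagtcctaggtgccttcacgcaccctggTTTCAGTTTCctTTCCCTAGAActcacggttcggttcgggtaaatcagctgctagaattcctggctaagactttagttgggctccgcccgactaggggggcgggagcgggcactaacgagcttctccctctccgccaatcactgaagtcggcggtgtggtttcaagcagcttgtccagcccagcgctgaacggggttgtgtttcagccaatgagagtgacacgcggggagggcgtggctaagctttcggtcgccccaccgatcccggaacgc

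Cish held 2 GAS matches, TTCCTGGAA at bases 1 to 9 and TTCTTGGAA at bases 12 to 20 counted from the transcript start. Socs3 held 1 GAS match, TTCTTAGAA, from base -154 to -146. Socs1 held 2 overlapping interferon-response matches, GAAAGAGAAA from -83 to -74 and GAAACCGAAA from -77 to -68. Stat2 held 1 interferon-response match on the opposite strand, GAAACTGAAA from -222 to -213, and 1 wider GAS match, TTCCCTAGAA from -210 to -201. None of the 3 patterns was found in the windows of Stat3, Stat5a, Stat5b, Stat6 or Jak2. Of 32851 promoter windows of the same length, 8.3% held the GAS pattern, 6.95% the wider form and 3.44% the interferon-response pattern. A match is a run of letters and does not show binding.

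**Figure D1:**
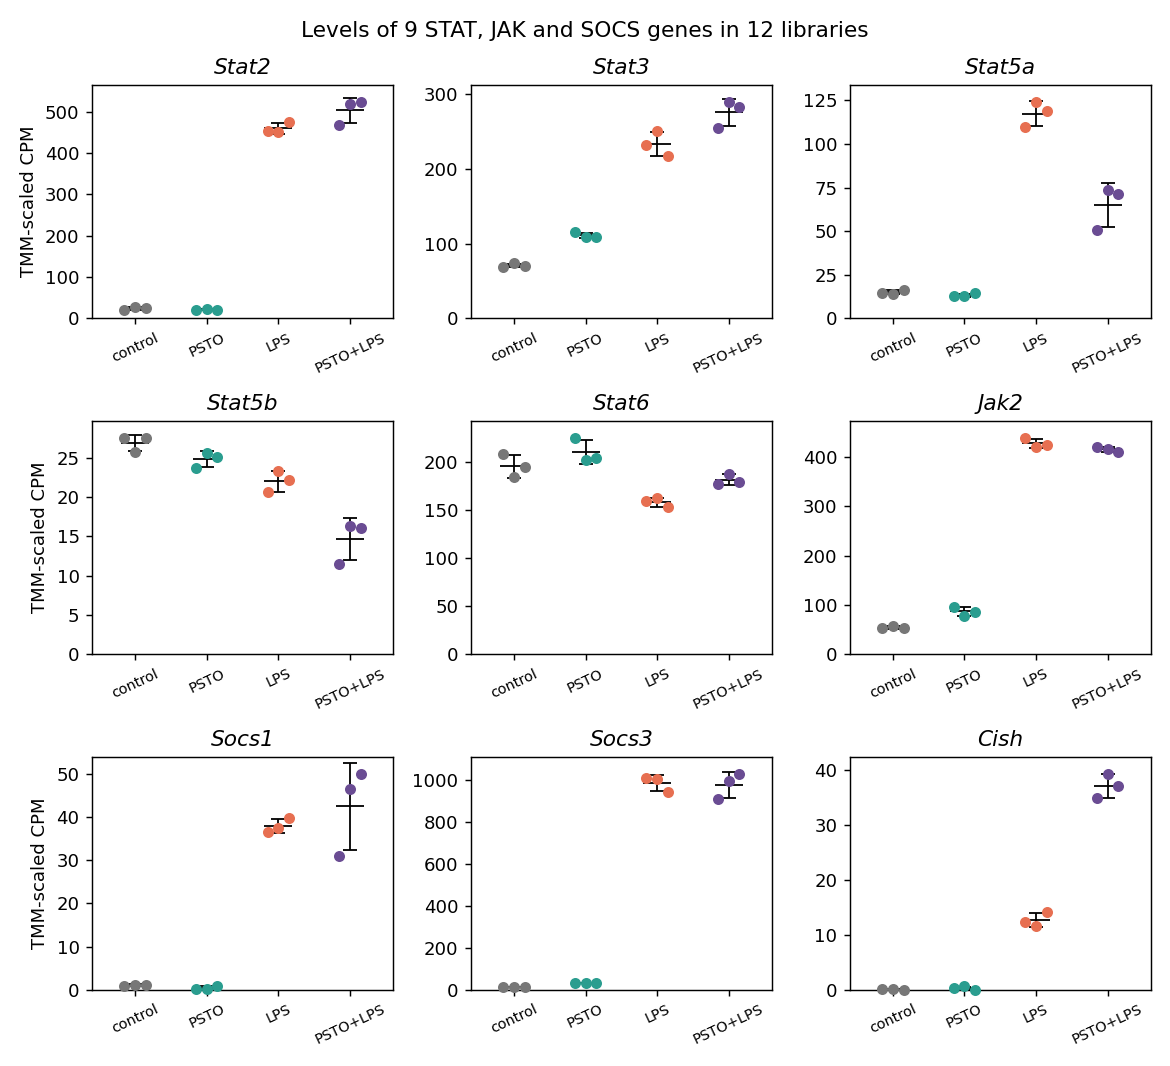
TMM-scaled CPM (y axis, linear from 0) of each of the 9 genes in the 4 groups (x axis), with 1 point per library and the mean ± SD of 3 libraries in black. Socs3 sits between 911 and 1031 CPM in all 6 libraries with LPS, while Cish is at 34.8 to 39.3 CPM in PSTO+LPS and at 11.5 to 14.1 CPM in LPS.

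The comparison of LPS with control asks how LPS changes this pathway in cells without PSTO. The 3 feedback genes, Jak2, Stat2, Stat3 and Stat5a rose, and Stat5b and Stat6 fell. All 9 members thus passed the edgeR quasi-likelihood test at an adjusted p under 0.05 (called, below), as did 62.9% of all genes tested. The 7 rises compare with 32.8% of all genes called higher and the 2 falls with 30.1% called lower. The median log2 change of the 9 was 3.0, beside 0.01 over all genes. For all 9 the LPS libraries did not overlap the control libraries, in 7 above them and in 2 below, against 67.4% of all genes without overlap, 34.7% above and 32.6% below. Cish had 4, 4 and 0 reads in control and 7, 16 and 1 in PSTO. It passed the filter on low counts through the libraries with LPS. Its rise and lack of overlap, here and in PSTO-pretreated cells, were therefore nearly set by the filter.

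Socs3 encodes an inhibitor that binds gp130-type receptors and Janus kinases. Its level was 14.0, 12.3 and 11.9 CPM in the control libraries and 1009.6, 1007 and 943 CPM in the LPS libraries. The log2 change was 6.27 (SE 0.07, edgeR adjusted p = 1.44e-21), a 77.3-fold rise. In PSTO-pretreated cells LPS took Socs3 from 31.8, 33.2 and 32.2 CPM to 911, 995 and 1031 CPM, a log2 change of 4.92 (SE 0.07, edgeR adjusted p = 1.09e-20). The libraries with LPS lay far above those without it in both settings, and the smaller change with PSTO started from a higher level.

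Cish encodes an inhibitor known for its induction by STAT5. It had 4, 4 and 0 reads in the control libraries, or 0.125, 0.16 and 0 CPM. With LPS it stood at 12.4, 11.5 and 14.1 CPM, a log2 change of 7.03 (SE 0.40, edgeR adjusted p = 1.01e-11). No control library came near an LPS library. In the annotation held here its exons share 479 bases with an antisense gene, Gm17041, which had no read in any library, and 261 bases with the pseudogene Gm17040, which had 2 reads in all; the strand setting of the counting is not given in the sources used here.

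Socs1 encodes the inhibitor that restrains interferon receptors and JAK2. It was at 0.937, 1.2 and 1.16 CPM in control and at 36.5, 37.5 and 39.6 CPM in LPS; the log2 change was 5.11 (SE 0.23, edgeR adjusted p = 2.81e-13). With PSTO present LPS raised it by 6.51 on the log2 scale (SE 0.26, edgeR adjusted p = 6.95e-14). Jak2, the kinase used by receptors for interferon gamma, GM-CSF and several other cytokines, was at 51.9, 56.3 and 52.7 CPM in control and at 439, 420.5 and 424 CPM in LPS. Its log2 change was 3.0 (SE 0.06, edgeR adjusted p = 3.13e-18), and 2.27 (SE 0.06) in PSTO-pretreated cells. All 6 libraries with LPS exceeded all 6 without it, for Jak2 as for the 3 feedback genes.

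Among the STAT genes, Stat2, whose protein joins the interferon-activated complex, rose most. It ran from 19.7 to 26.4 CPM in control and from 451 to 476 CPM in LPS, and its log2 change was 4.32 (SE 0.08, edgeR adjusted p = 9.41e-19). Stat3, the factor downstream of interleukin-6 and interleukin-10, rose from 70.8 ± 2.39 to 233 ± 16.3 CPM (SD, n = 3), a log2 change of 1.72 (SE 0.06, edgeR adjusted p = 8.37e-15). Stat6, the factor downstream of interleukin-4, fell from 195 ± 11.9 to 158 ± 4.85 CPM, with a log2 change of -0.31 (SE 0.06, edgeR adjusted p = 9.75e-05). Its fall in PSTO-pretreated cells was -0.21 (SE 0.06, edgeR adjusted p = 0.00314), and without the library PSTO 1 that call was lost (adjusted p = 0.0623). Its exons share 40 bases with Nab2 on the opposite strand, and Nab2 was at 19.8 to 39.4 CPM in the group means.

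Stat5a and Stat5b, neighbouring genes whose proteins are close copies used by GM-CSF and other cytokine receptors, moved in opposite directions with LPS. Stat5a was at 14.7, 13.7 and 16.4 CPM in control and at 109.8, 124 and 119 CPM in LPS, and its log2 change was 2.97 (SE 0.12, edgeR adjusted p = 2.7e-14). Stat5b was at 27.5, 25.8 and 27.5 CPM in control and at 20.6, 23.3 and 22.1 CPM in LPS, and its log2 change was -0.29 (SE 0.11, edgeR adjusted p = 0.026). The Stat5b libraries did not overlap, but the call was lost without LPS 1 (adjusted p = 0.105) or without LPS 3 (adjusted p = 0.0554). In PSTO-pretreated cells Stat5b fell by 0.77 on the log2 scale (SE 0.12, edgeR adjusted p = 1.11e-05) while Stat5a rose by 2.31 (SE 0.12). Reads that match both copies could be split by the counting, and both levels are uncertain for that reason. Stat5a also shares 72 exon bases with Stat3 on the opposite strand.

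Within each library the ratio of Stat5a to Stat5b reads was 0.535, 0.533 and 0.597 for the control libraries and 0.53, 0.488 and 0.566 for the PSTO libraries. With LPS it was 5.33, 5.32 and 5.36, and with both agents 4.39, 4.51 and 4.45. The ratio needs no scaling between libraries. Control and PSTO libraries overlapped, and the PSTO+LPS libraries all lay below the LPS libraries. Per kilobase of annotated exon, which allows levels of different genes to be set side by side only roughly because the exon lengths come from another annotation, Stat6 stood highest of the 5 STAT genes in control, at 44.4 ± 2.71 CPM per kb against 7.43 ± 0.25 for Stat3 and 2.1 ± 0.192 for Stat5a. In LPS the level of Stat2 per kb was highest, at 77.7 ± 2.29, against 35.9 ± 1.1 for Stat6 (SD, n = 3).

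Cells with PSTO+LPS set against those with PSTO answer the same question after pretreatment. The same 7 members were called higher and the same 2 lower, against 29.8% and 29.9% of all genes (59.7% called in all), with a median log2 change of 2.31 for the 9 beside -0.02 over all genes. The libraries did not overlap for any of the 9, against 64.9% of all genes, 32.2% above and 32.6% below. Upper-quartile scaling lowered the median of all genes in LPS vs control from 0.01 to -0.14 and in PSTO+LPS vs PSTO from -0.02 to -0.14, and moved the all-gene calls in the former from 4753 higher and 4368 lower to 3829 and 5341. The members' 7 rises and 2 falls were the same count under it in both LPS comparisons, while the Stat5b change in LPS vs control became -0.45 and the Stat6 change in PSTO+LPS vs PSTO -0.33.

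**Figure D2:**
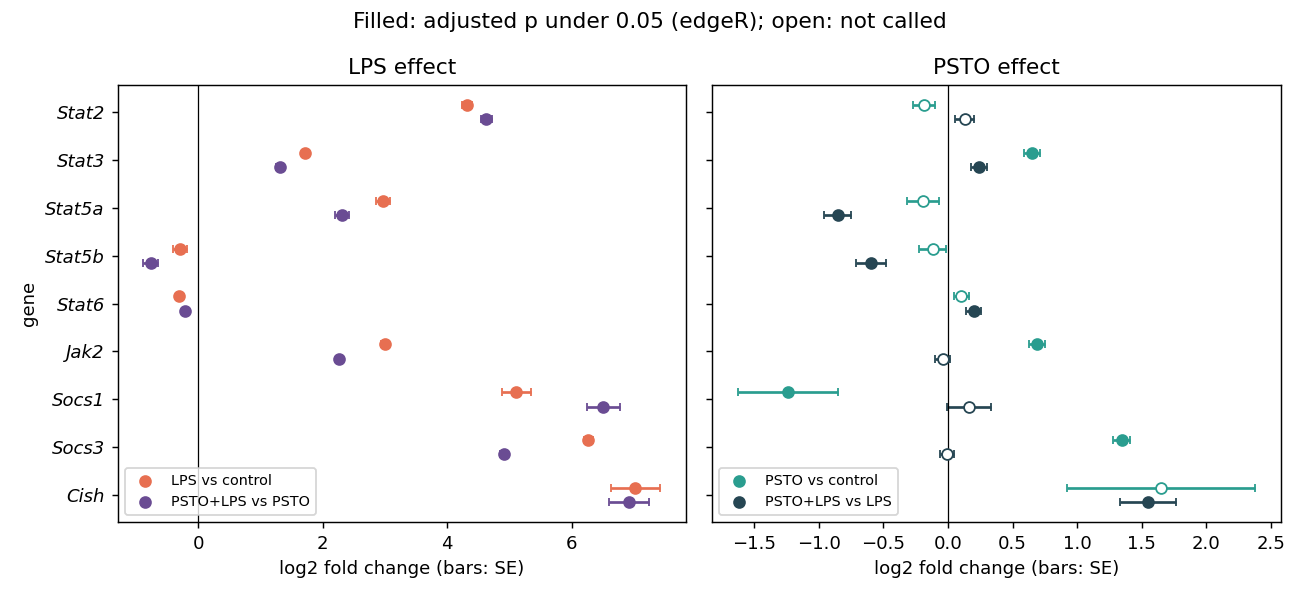
Log2 fold changes (x axis) of the 9 genes (y axis) for LPS, left, and for PSTO, right, with bars for the SE; filled points were called at an edgeR adjusted p under 0.05. The LPS changes keep their sign with and without PSTO, while PSTO raised Socs3 and Jak2 in cells without LPS and was not called for them in cells with LPS.

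PSTO against control shows the effect of the agent in unstimulated cells. Socs3, Jak2 and Stat3 rose and Socs1 fell, so that 4 of 9 members were called (3 higher, 1 lower), against 30.6% of all genes, 14.8% higher and 15.8% lower. The median log2 change of the 9 was 0.10, beside 0.00 over all genes. A share of 4 in 9 is near that background. Libraries did not overlap for 5 members, 3 above control and 2 below (Socs1 and the uncalled Stat5b), against 44.3% of all genes, 21.4% above and 22.9% below.

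Socs3 rose from 12.7 ± 1.14 to 32.4 ± 0.723 CPM (SD, n = 3), with a log2 change of 1.34 (SE 0.07, edgeR adjusted p = 2.46e-11) or 2.54-fold. Jak2 was at 95, 78 and 86 CPM in the PSTO libraries, 1.61-fold above control (log2 change 0.69, SE 0.06, edgeR adjusted p = 6.99e-08). Stat3 was at 115, 109 and 109 CPM with PSTO against 68.8, 73.4 and 70.3 CPM in control, a log2 change of 0.65 (SE 0.06, edgeR adjusted p = 1.38e-07). For these 3 genes no PSTO library overlapped a control library.

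Socs1 was low in both groups, with 30, 30 and 35 reads in control and 7, 6 and 24 in PSTO. Its log2 change was -1.24 (SE 0.39, edgeR adjusted p = 0.0204). The libraries did not overlap, although PSTO 3, at 0.851 CPM, lay close to control 1, at 0.937 CPM. The call was lost without control 2 (adjusted p = 0.0512), control 3 (0.0544), PSTO 1 (0.0861) or PSTO 2 (0.0959), and without PSTO 3 the change was -2.13 (adjusted p = 0.000892).

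Cish had 7, 16 and 1 reads in PSTO, and its change of 1.65 was not called (SE 0.72, edgeR adjusted p = 0.0973). It was called without PSTO 3 (log2 change 2.17, adjusted p = 0.00957), with DESeq2 (1.69, adjusted p = 0.019) and with no filter on low counts (1.65, adjusted p = 0.0135), and the change was 0.65 without PSTO 2 and 1.04 without control 3. Stat2 (-0.18, edgeR adjusted p = 0.115), Stat5a (-0.19, 0.27), Stat5b (-0.12, 0.457) and Stat6 (0.10, 0.181) were not called either. Stat2 was called lower without control 1 (log2 change -0.31, adjusted p = 0.00435) and with no filter on low counts (-0.18, adjusted p = 0.0395).

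PSTO+LPS against LPS shows the effect of PSTO in stimulated cells. Cish rose further and Stat5a and Stat5b fell, with smaller rises in Stat3 and Stat6, while Socs3, Socs1, Jak2 and Stat2 were not called. That makes 5 of 9 members called, 3 higher and 2 lower, against 38.3% of all genes, 16.6% higher and 21.7% lower. The median log2 change of the 9 was 0.13, beside -0.03 over all genes. The 5 called members were also the 5 whose libraries did not overlap, against 47.4% of all genes, 20.9% above and 26.5% below.

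Cish was at 34.8, 39.3 and 37.1 CPM in PSTO+LPS against 12.4, 11.5 and 14.1 CPM in LPS. The groups were well apart, with a log2 change of 1.55 (SE 0.21, edgeR adjusted p = 1.12e-05), or 2.92-fold, and 1.59 without PSTO+LPS 1. Across the 4 groups Cish ordered as PSTO+LPS, then LPS, then PSTO and control, and the last 2 overlapped.

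Stat5a was at 50.5, 73.5 and 71.4 CPM in PSTO+LPS, with PSTO+LPS 1 the lowest, against 110 to 124 CPM in LPS. Its log2 change was -0.85 (SE 0.11, edgeR adjusted p = 3.15e-06), and -0.70 without PSTO+LPS 1 (adjusted p = 5.59e-07). Stat5b was at 11.5, 16.3 and 16 CPM against 20.6 to 23.3 CPM, with a log2 change of -0.59 (SE 0.12, edgeR adjusted p = 0.000487), and -0.45 without PSTO+LPS 1 (adjusted p = 0.00265). The groups did not overlap for either gene.

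**Figure D3:**
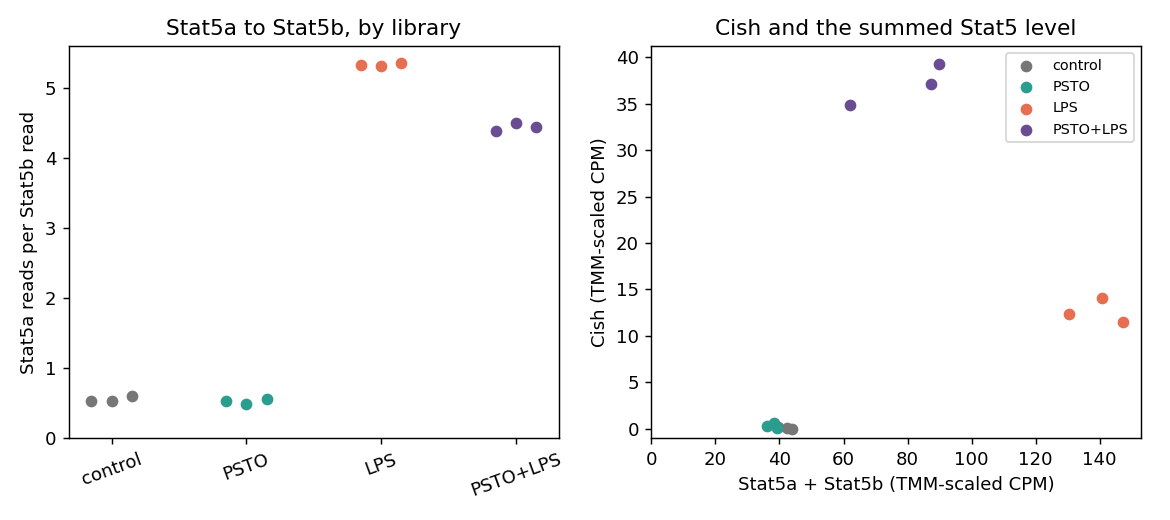
Left, reads of Stat5a per read of Stat5b (y axis, linear from 0) in each library by group; right, the Cish level (y axis) against the summed level of Stat5a and Stat5b (x axis), both in TMM-scaled CPM, 1 point per library. The summed Stat5 level is 130 to 147 CPM in LPS and 62 to 89.8 CPM in PSTO+LPS, where Cish is higher.

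Stat3 rose from 232, 250 and 218 CPM in LPS to 256, 289 and 283 CPM in PSTO+LPS, a log2 change of 0.24 (SE 0.06, edgeR adjusted p = 0.00332) with only a narrow gap between 250 and 256 CPM. Without PSTO+LPS 1 the Stat3 change was 0.29 (edgeR adjusted p = 0.000525). Stat6 rose from 158 ± 4.85 to 181 ± 5.49 CPM (SD, n = 3), a log2 change of 0.20 (SE 0.06, edgeR adjusted p = 0.00967), and the call was lost without LPS 3 (adjusted p = 0.0542). For Socs3 the log2 difference was -0.01 with a 95% interval of -0.12 to 0.10 (edgeR adjusted p = 0.906), and for Jak2 it was -0.04 with an interval of -0.16 to 0.08 (adjusted p = 0.624). Socs1 spread widely in PSTO+LPS, at 30.9, 46.4 and 49.9 CPM, and its difference of 0.16 had an interval of -0.19 to 0.51 (edgeR adjusted p = 0.481). Without PSTO+LPS 1 the difference was 0.35 (adjusted p = 0.0821), without PSTO+LPS 2 it was 0.09 and without PSTO+LPS 3 it was 0.02, none of them called. Stat2 differed by 0.13 with an interval of -0.02 to 0.28 (edgeR adjusted p = 0.168), and was called higher in 4 of 20 alternatives: with only the groups compared (adjusted p = 0.0201), with the filter of 50 reads (0.0486), and without control 1 (0.0294) or control 2 (0.0396).

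The interaction tests whether the PSTO effect with LPS differed from that without LPS, on the log2 scale. It was called for 6 of 9 members, against 17.1% of all genes; 1 was higher and 5 lower, against 6.96% and 10.1% of all genes. With relative log expression or upper-quartile factors the split was 2 higher and 4 lower, with DESeq2 2 and 5, and with limma-voom 0 and 5. The all-gene calls went from 1010 higher and 1466 lower to 1398 and 1168 with a filter of 50 reads, where the members were also split 2 and 4.

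The interaction of Socs3 was -1.35 on the log2 scale (SE 0.09, edgeR adjusted p = 7.7e-09), that of Jak2 -0.73 (SE 0.08, adjusted p = 5.73e-06) and that of Stat3 -0.41 (SE 0.09, adjusted p = 0.00224). For these 3 genes PSTO raised the level without LPS, and the log2 rise was smaller or not called with LPS. In CPM the Stat3 rise was not smaller, from 70.8 to 111 without LPS and from 233 to 276 with it. The SD of Socs3 was 37.7 CPM in LPS and 61.2 CPM in PSTO+LPS. A rise in CPM like that without LPS, from 12.7 to 32.4, could not be seen there. Jak2 went from 53.7 to 86.3 CPM with PSTO in cells without LPS. In cells with LPS it went from 428 ± 9.72 to 415 ± 5.61 CPM (SD, n = 3). Stat5a had an interaction of -0.66 (SE 0.16, edgeR adjusted p = 0.0077), with a fall under PSTO called only in cells with LPS. Without PSTO+LPS 1 the Stat5a interaction was -0.51. For Stat5b the interaction was -0.48 (SE 0.16, edgeR adjusted p = 0.0463), and 12 of its 19 alternatives lost the call. Those were the other scalings, the filter of 50 reads, and leaving out any control or PSTO library, LPS 2, LPS 3 or PSTO+LPS 1, without which it was -0.33 (adjusted p = 0.118). Socs1 went the other way, at 1.40 (SE 0.42, edgeR adjusted p = 0.0273), and the call was lost without control 2 (adjusted p = 0.0542), control 3 (0.0571), PSTO 1 (0.0818) or PSTO 2 (0.0884), while without PSTO 3 the value was 2.33. Stat2 (0.31, edgeR adjusted p = 0.0605), Stat6 (0.09, adjusted p = 0.494) and Cish (-0.10, adjusted p = 0.937) were not called. Stat2 was called in all but 9 of its 19 alternatives, so that its side of the threshold depends on the setting. These were both other scalings (adjusted p = 0.037 and 0.0353), no filter (0.011), the filter of 50 reads (0.0218), DESeq2 (0.0112), the replicate block (0.0463), and leaving out control 1 (0.00167), PSTO 1 (0.0464), PSTO 2 (0.0264) or PSTO+LPS 1 (0.024). The interval of the Cish value was wide, from -1.21 to 1.01, its level without LPS resting on 8 reads in control and 24 in PSTO.

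The rest of the pathway was described with 7 lists holding 88 further genes, 75 of them tested. In PSTO vs control 35 of the 75 were called, 22 higher and 13 lower, against 30.6% of all genes (14.8% higher, 15.8% lower). In PSTO+LPS vs LPS 48 were called, 18 higher and 30 lower, against 38.3% (16.6% higher, 21.7% lower). Their median log2 changes were 0.06 and -0.02, beside 0.00 and -0.03 over all genes. In LPS vs control 61 were called, 50 higher and 11 lower (median 1.22, beside 0.01), against 62.9% of all genes (32.8% higher, 30.1% lower). In PSTO+LPS vs PSTO 61 were called, 44 higher and 17 lower (median 0.88, beside -0.02), against 59.7% (29.8% higher, 29.9% lower). Of the tested genes, 5 had no read in control and passed the filter on low counts through cells with LPS. Others, among them Il23a and Ccl17 with 7 and 10 reads in control, also passed it through cells with LPS. The LPS rises of such genes, and the counts and medians holding them, were in part set by the filter. The lists were chosen with results known, and the counts of each list below are descriptions to be read against these shares. The library PSTO+LPS 1 left out gave 45 called in PSTO+LPS vs LPS.

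Among the other kinases and partners of the STAT factors, PSTO alone lowered Irf9, the DNA-binding partner of STAT2, from 43.9 ± 5.65 to 23 ± 0.803 CPM (SD, n = 3), with a log2 change of -0.93 (edgeR adjusted p = 1.79e-08). Jak1, a kinase of many cytokine receptors, rose with PSTO in stimulated cells, from 211 ± 9.23 CPM in LPS to 359 ± 29.3 CPM in PSTO+LPS (log2 change 0.77, edgeR adjusted p = 7.59e-09), while Tyk2, its partner at interferon receptors, fell by 0.53 on the log2 scale. No read of Stat4 was found.

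Of the other SOCS genes, Socs2 had 29 reads in all and was not tested, and 3 of the other 4 rose with PSTO alone: Socs7 by 0.61 on the log2 scale, Socs6 by 0.57 and Socs5 by 0.38 (median of the 4, 0.48), against 14.8% of all genes called higher. With LPS present PSTO raised Socs4 (0.42) and Socs5 (0.41). LPS raised Socs7 from 28 ± 1.26 to 58.7 ± 5.27 CPM and lowered Socs4 from 58 ± 4.76 to 39.2 ± 1.35 CPM (edgeR adjusted p = 3.18e-10 and 1.15e-06). These moves were all small beside the LPS changes of Socs1, Socs3 and Cish.

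Other brakes on the pathway were tested in full, 11 of 11. PSTO lowered Ptpn6, which encodes the phosphatase SHP-1, from 238 ± 12.4 to 98 ± 4.26 CPM without LPS and from 127 ± 3.71 to 36.7 ± 2.44 CPM with it (SD, n = 3). The log2 changes were -1.28 and -1.79 (edgeR adjusted p = 6.21e-12 and 2.43e-13), and the interaction was -0.51 (adjusted p = 0.000286). Sh2b3, an adaptor that restrains JAK2, fell with PSTO in stimulated cells from 225 ± 10.9 to 126 ± 6.83 CPM (log2 change -0.83, edgeR adjusted p = 4.27e-10). Usp18, which blocks signalling at the interferon receptor, rose by 6.24 on the log2 scale with LPS and fell by 1.93 with PSTO alone. In the list 1 gene was higher and 3 lower in PSTO vs control (median 0.00), and none higher and 6 lower in PSTO+LPS vs LPS (median -0.34). Of all genes, 14.8% were higher and 15.8% lower in the former, and 16.6% and 21.7% in the latter.

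Of 20 tested receptor subunits, PSTO called 4 higher and 5 lower without LPS (median -0.04) and 3 higher and 7 lower with it (median -0.08), against 30.6% and 38.3% of all genes called in either direction. Il4ra, the receptor chain for interleukin-4, rose from 26.4 ± 1.7 CPM in LPS to 57.9 ± 11.1 CPM in PSTO+LPS (log2 change 1.13, edgeR adjusted p = 2.04e-06). Il13ra1, which pairs with it, fell from 99 ± 13.8 to 45.8 ± 4.99 CPM (log2 change -1.11, edgeR adjusted p = 6.93e-08). Csf2rb encodes the shared GM-CSF receptor chain, and Csf2rb2 is a gene of similar sequence that does not encode that chain. Reads of these genes could be split between them. Csf2rb and Csf2rb2 had interactions of -0.55 each (edgeR adjusted p = 0.000103 and 0.000156).

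Of 13 tested ligand genes, PSTO called 4 higher and none lower without LPS, and 7 higher and 4 lower with it (median 1.48), against 14.8% and 15.8% of all genes without LPS and 16.6% and 21.7% with it. Without LPS the median was 1.41, or 0.53 with genes that had no read in control set at their bound against 3 reads over the group. Osm, the oncostatin M gene, was at 8.47 ± 0.27 CPM in control and 62.8 ± 1.9 CPM in PSTO cells. With LPS it stood at 34 ± 4.77 CPM, and with both agents at 469.5 ± 19.3 CPM (SD, n = 3). Csf2, which encodes GM-CSF, a cytokine that signals through JAK2 and STAT5, had no read in control or PSTO, 3.75 ± 0.639 CPM in LPS and 18.4 ± 2.66 CPM in PSTO+LPS (log2 change 2.30, edgeR adjusted p = 9.31e-07). Il23a rose from 3.18 ± 0.915 to 27 ± 2.11 CPM in the same comparison, and Il11 from 0.874 ± 0.405 to 5.17 ± 1.02 CPM. Cish thus stood higher in the groups where Csf2 did, but so did Il23a and further ligand genes. Whether Cish depends on any of them was not tested.

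**Figure D4:**
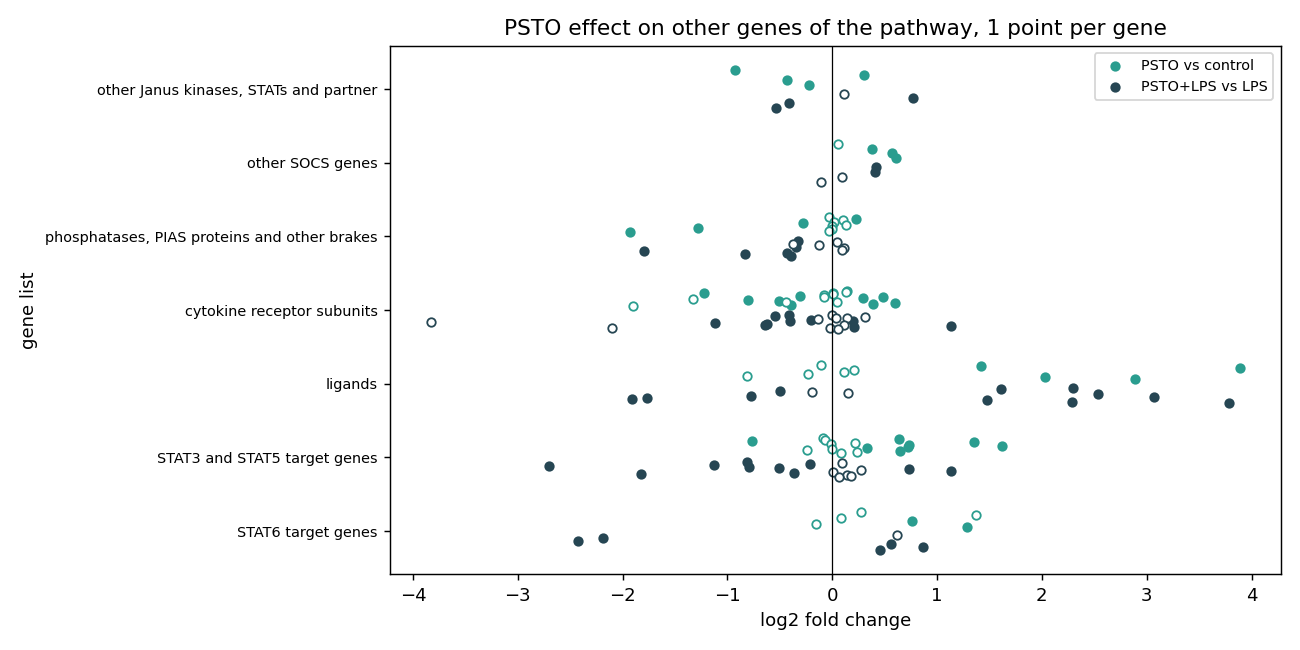
Log2 fold changes (x axis) of the PSTO effect without LPS and with LPS for genes of the 7 lists (y axis), 1 point per gene; filled points were called at an edgeR adjusted p under 0.05, and genes with no read in a compared group are left out. In PSTO+LPS vs LPS the list of brakes holds 6 falls and no rise, and the ligands hold 7 rises and 4 falls, where 16.6% of all genes rose and 21.7% fell.

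Among 16 tested genes known as STAT3 or STAT5 targets in other settings, 12 rose and 1 fell with LPS (median 2.05, beside 0.01 over all genes), against 32.8% and 30.1% of all genes. PSTO called 7 higher and 1 lower without LPS (median 0.23, beside 0.00), against 14.8% and 15.8%. In stimulated cells PSTO called 2 higher and 8 lower (median -0.10, beside -0.03), against 16.6% and 21.7%. Myc fell from 252 ± 4.18 CPM in LPS to 71.2 ± 10.4 CPM in PSTO+LPS (log2 change -1.83, edgeR adjusted p = 2.63e-11) and Ccnd2, the cyclin D2 gene, from 25.7 ± 3.01 to 4.03 ± 1.78 CPM (log2 change -2.70, adjusted p = 1.01e-07). Il1rn, the interleukin-1 receptor antagonist gene, rose from 1249 ± 82.5 to 2742 ± 220 CPM (log2 change 1.13, SD, n = 3, edgeR adjusted p = 1.17e-10). The kinase gene Pim1 rose by 4.02 on the log2 scale with LPS.

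The genes most like each member over the 12 libraries were ranked by Pearson r of log2 CPM among 9235 named genes with a mean of at least 5 CPM, as a description without a test, since all 12 points share the same 4 groups. Those of Stat2 were Helz2 (r = 0.999), Slfn4 and Clec4e, those of Stat3 were Prkx (0.999), Ppp1r15b and Mtmr7, and those of Stat5a were Sdc3 (0.999), Usp25 and Spire1. Sdc3, which encodes the cell surface proteoglycan syndecan-3, went from 315 ± 9.52 CPM in LPS to 173 ± 35.8 CPM in PSTO+LPS. Those of Stat5b were Tram2 (0.988), Lix1l and Plk1, and those of Stat6 were Pink1 (0.964), Tax1bp3 and Epm2aip1. Jak2 and Socs3 shared the gene Tlk2 (0.998 and 0.999), beside Milr1 and Vps37a for Jak2 and Tmbim6 and Il1b for Socs3. Those of Socs1 were Ifit3b (0.997), a close copy of another interferon-induced gene whose count is uncertain, Ddx60 and 5430427O19Rik. Those of Cish were Pigv (0.997), Slpi and Sub1, and Slpi, a secreted protease inhibitor gene, went from 22.9 ± 0.591 CPM in LPS to 55.7 ± 3.14 CPM in PSTO+LPS (SD, n = 3).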

How the data were processed

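RNA was measured by sequencing in 12 libraries. The deposited table holds whole-number read counts per gene with no normalization, checked on the values. Per the submitters' processing notes HISAT, DESeq2 and build mm39 were used; which counter, annotation release, strand setting and versions were used was not given in the sources used here. All 12 columns matched a sample by title.

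The counts were modelled with edgeR 4.0.16, beside limma 3.58.1, under R 4.3.3. Of 55137 entries, 14505 passed filterByExpr and held at least 99.91% of each library's reads. Library sizes were scaled by TMM, and a quasi-likelihood model with 1 mean per group was fitted over all 12 libraries (common biological coefficient of variation 0.0959). P-values were adjusted by Benjamini-Hochberg over all tested genes, and a gene was called at an adjusted p under 0.05. The SE is the log2 change divided by the square root of F. Intervals are 95%. Log2 CPM used a prior count of 2. Tests were tried on simulated data first. Exon lengths, overlaps and pseudogene marks came from GENCODE M21 (GRCm38). All 9 members had a promoter window in RefSeq's GRCm38.p6 set.

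The members and lists were chosen with earlier results of these data known. Named beside the 9 members are, per list and comparison, up to 4 called genes by size of change or, where none was called, the 2 most abundant, and the 3 genes most like each member. Alternatives were other scaling, other filters, DESeq2 1.42.0, limma-voom, a replicate block, the compared groups alone, and each library left out in turn. Some markers and list genes, and the counts of the list of other kinases and factors, are not reported here.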

Additional observations from a re-analysis of the deposited data

Results flagged for a closer look

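The PSTO effect differed between cells with and without LPS, by the interaction test of edgeR at an adjusted p under 0.05, for 6 of the 9 members. Of these, 1 was higher and 5 lower, against 17.1% of all genes called, 6.96% higher and 10.1% lower. The other pathway genes given here were called as well. All values are the log2 PSTO effect with LPS minus that without it, and no explanation was tested.

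Among the members the interaction was -0.41 for Stat3, -0.66 for Stat5a, -0.48 for Stat5b, -0.73 for Jak2, 1.40 for Socs1 and -1.35 for Socs3. The Stat5b call was kept in only 7 of 19 alternatives and the Socs1 call in 14 of 19. Among the other kinases, factors and SOCS genes it was 1.03 for Irf9, 0.46 for Jak1, -0.31 for Tyk2, -0.71 for Socs7, -0.48 for Socs6 and 0.36 for Socs4.

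Among the brakes the interaction was 1.53 for Usp18, -0.80 for Sh2b3, -0.51 for Ptpn6 and -0.43 for Ptprc. Among receptor subunits it was -0.89 for Il10ra, -0.55 for Csf2rb2, -0.55 for Csf2rb and 0.37 for Il6st. Among ligands it was 2.96 for Il23a, -0.98 for Il15 and 0.90 for Osm.

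Among target genes the interaction was -4.05 for Ccnd2, -1.59 for Myc, -1.35 for Id1 and -1.01 for Cebpd, and -3.56 for Ccl17, -2.52 for Ccl22 and -0.83 for Tgm2. Ccnd2 was low without LPS, with 25 reads in control and 60 in PSTO. Il23a had 7 reads in each of control and PSTO, and its adjusted p was 0.0267. Ccl17 rests on 10 reads for control and 24 for PSTO, and on 143 for LPS. It had 24 reads with both agents, where its libraries ran from 0.0755 to 1.19 CPM, and its interaction had an SE of 1.11 and an adjusted p of 0.0332.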

How the results depend on the processing

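Of the 45 values (9 members in 5 comparisons), 32 kept their direction and call in up to 8 alternatives and in the 12 fits that left out a library. Counts of members called and of other pathway genes called stayed within 1.5 times the main count throughout. Members called ran from 8 to 9 in LPS vs control and in PSTO+LPS vs PSTO, 3 to 6 in PSTO vs control, 4 to 6 in PSTO+LPS vs LPS and 4 to 7 in the interaction. Only uncalled values changed sign. Socs3 in PSTO+LPS vs LPS became 0.0055 with relative log expression factors, 0.0054 with DESeq2, 0.0275 with upper-quartile scaling, 0.0298 with only the groups compared and 0.0415 with the filter of 50 reads, and ran from -0.054 to 0.0351 with a library left out. Jak2 in the same comparison became 0.011 with the filter of 50 reads. The Cish interaction became 0.0343 with limma-voom and ran from -0.59 to 0.94 with a library left out. The cause was not tested. Of the Socs1 calls, that in PSTO vs control was lost with limma-voom (adjusted p = 0.173) and with only the groups compared (0.0863), and the interaction with limma-voom (0.208). The replicate block left the members called at 9 in each LPS comparison, 4 for PSTO alone and 5 for PSTO with LPS, and gave 7 in the interaction, where Stat2 gained a call (adjusted p = 0.0463). Same-numbered libraries share only a number: the correlation of their deviations from the group means ran from -0.0314 to 0.0513 over 18 pairs, of which 6 correlated best with their own number. Depth limits Cish and Socs1 without LPS, which rest on 8 to 95 reads a group.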

Other observations

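Of 11 listed STAT6 target genes known from alternatively activated macrophages, Retnla and Chil3 had no read in any library, Pparg, Il4i1 and Cdh1 were too low to test, and 6 were tested. With LPS 5 rose and 1 fell (median log2 change 1.89, beside 0.01 over all genes, of which 32.8% rose and 30.1% fell), and in PSTO+LPS vs LPS 3 rose and 2 fell (median 0.51, beside -0.03), against 16.6% and 21.7% of all genes. Ccl17, among those that rose with LPS, had 10 reads in control and passed the filter on low counts through cells with LPS. Ccl22, a chemokine gene, was at 1.56 ± 0.801 CPM in control and 1.67 ± 0.407 CPM in PSTO cells. LPS took it to 474 ± 14.8 CPM, and PSTO before LPS to 88.3 ± 15.4 CPM (SD, n = 3), a log2 difference of -2.43 (edgeR adjusted p = 2.45e-11). Mrc1, the mannose receptor gene, was higher in PSTO+LPS than in LPS, at 15.2 ± 2.44 against 8.32 ± 0.556 CPM (log2 change 0.86, edgeR adjusted p = 0.00381). Tgm2, a transglutaminase gene, rose with PSTO alone from 154 ± 3.77 to 376 ± 43.1 CPM (log2 change 1.29, edgeR adjusted p = 1.7e-11). Arg1 fell with LPS by 1.01 on the log2 scale from a low level of 2.68 CPM (edgeR adjusted p = 0.00846).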
